A study of Mus musculus with 2 samples.

Results

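The cytosolic ribosomal protein genes were taken by symbol: rows named Rpl or Rps followed by a digit, or starting with Rplp or Rpsa, without pseudogene symbols ending in -ps and a number and without the Rps6k kinases. The rule found 85 of the 14366 genes that both deposited tables hold. Of these, 46 encode proteins of the large subunit and 31 of the small subunit. The other 8 (Rpl22l1, Rpl36al, Rpl39l, Rpl3l, Rpl7l1, Rps27l, Rps27rt and Rps19bp1) are paralogues, a retrogene copy or a binding protein that share the symbol, and are called relatives here. That division was made after the row names had been seen.

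The study exposed mouse hematopoietic stem cells (HSC) to deferoxamine (DFO), an iron-binding compound, and compared them with vehicle at the level of transcripts. Both groups were wildtype C57/B6 cells, from mice of 6 to 8 weeks, sorted as lineage-negative, c-Kit+, Sca-1+, CD150+ and CD48- marrow cells, with marrow of 8 mice pooled. Both were cultured for 48 h in Myelocult M5300 medium supplemented with SCF (100 ng/ml) among other additions and the antibiotic Primocin. One culture received DFO at 10 µM and the other sterile water, and 20000 live cells from each entered a droplet-based 3′ single-cell library with unique molecular identifiers. There was 1 library per group, so culture, library preparation and treatment cannot be told apart, no test was possible and no p-value is given.

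The vehicle library held 8708 cells and 260938938 molecules, and the DFO library 9852 cells and 284326017 molecules. The median cell had 27805.5 and 27114.0 molecules. Cells with female and with male transcripts were present in both. The libraries shared 24 cell barcodes. Levels are given as CPM, molecules per 1000000 molecules of the library. The 13 HSC markers listed for this check were all in the tables and summed to 493.6 CPM in vehicle and to 526.7 in DFO. Cd48, whose protein the sort selected against, was at 103.0 and 108.0 CPM after culture. Of the 15 megakaryocyte markers 14 were in the tables (Gp6 was not), and their sum was 1766 CPM in vehicle against 779.1 in DFO. Of the 7 lymphoid markers only Cd79a was in the tables, at under 1 CPM, and neither eosinophil marker was. Intervals below are 95% and cover counting error only, not variation between cultures.

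As background, each ribosome carries a single copy of nearly every core ribosomal protein, 2 subunits meet on the message, and the large subunit holds the peptidyl transferase centre while the small one decodes. The messages are among the most abundant of a growing cell, and most begin with a cytosine followed by a run of pyrimidines (the terminal oligopyrimidine, or TOP, motif), through which mTOR and Larp1 regulate their translation and stability. In HSC, protein synthesis is held low and tightly controlled, and loss of single ribosomal proteins causes inherited marrow failure.

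The start of the transcript is shown for 8 genes, because the TOP run is the sequence feature the family is known for and because these genes include both ends of the order described below. Each window covers 15 bases either side of the transcript start, from the RefSeq promoter table of assembly GRCm38.p6, and capitals mark the run of pyrimidines at the start. Rpl35 (chr2:39005117-39005146, minus strand), Rps27 (chr3:90213634-90213663, minus), Rps27rt (chr9:114982725-114982754, minus) and Rpl38 (chr11:114668565-114668594, plus) were higher in DFO. Rps10 (chr17:27635230-27635259, minus), Rps18 (chr17:33955651-33955680, minus) and Rps6 (chr4:86857353-86857382, minus) were lower. Rpl5 (chr5:107900513-107900542, plus) was higher and has no such run in its window.
Rpl35: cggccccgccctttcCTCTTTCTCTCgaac
Rps27: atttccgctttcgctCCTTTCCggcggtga
Rps27rt: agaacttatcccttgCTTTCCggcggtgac
Rpl38: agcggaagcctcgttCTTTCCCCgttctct
Rps10: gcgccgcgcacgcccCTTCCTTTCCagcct
Rps18: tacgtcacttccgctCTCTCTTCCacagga
Rps6: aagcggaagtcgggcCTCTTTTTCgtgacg
Rpl5: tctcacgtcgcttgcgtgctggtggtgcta

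The motif searched was a C at the annotated start followed by at least 4 bases that are each C or T, read on the gene's own strand only. It was found in 14 of the 65 members with a window (21.5%) and in 3.0% of all 10775 genes with one. Rpl14, Rpl15, Rpl28, Rpl35a, Rps15a, Rps21 and Rplp2 also had it. The median log2 difference between libraries, defined in the next paragraph, was -0.039 for the 14 members with the run and -0.072 for the 49 with a window, no run and enough molecules. A window without the run says only that these letters do not stand at that annotated start.

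The family supplied a smaller part of all molecules in DFO. It made up 25.62% of the vehicle library (Wilson interval 25.62 to 25.63%) and 24.09% of the DFO library (24.09 to 24.10%), a log2 ratio of -0.089. Large subunit genes went from 13.8 to 13.0% and small subunit genes from 11.6 to 10.8%, while the relatives stood at 0.236 and 0.241%. In the median cell the family took 25.9% of molecules in vehicle and 24.2% in DFO, with cells ranging from 6.85 to 41.4% and from 2.69 to 37.1%, so the cells of the libraries overlapped widely. The mitochondrially encoded share was 3.8% in vehicle and 4.35% in DFO. With those molecules left out of the total the log2 ratio was -0.081.

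Gene by gene, the difference is log2((DFO CPM + 1)/(vehicle CPM + 1)) from molecules summed over all cells, and 83 of the 85 members reached a mean of 5 CPM. Rpl39l and Rpl3l did not. The median difference was -0.071 over the 83 (range -0.28 to 0.16), against 0.019 over all 8886 genes at that minimum. In all, 60 of 83 members (72.3%) were below 0, where 42.1% of all genes were. A difference of -0.1 or lower was found for 35 members (42.2%), against 14.0% of all genes, and one of 0.1 or higher for 4 members (4.82%), against 19.2%. The Poisson intervals of the libraries were apart for 77 members (92.8%), 56 lower and 21 higher in DFO, against 54.1% of all genes (21.4% lower and 32.7% higher). These intervals narrow with the level: among the 150 genes at 1000 CPM or more, 73 of them members, they were apart for 147, 70 of them members, so the number apart is no result about the members. With the cell clusters described below given equal shares in both libraries, the median went from -0.071 to -0.078. The part of cell composition in the difference was not tested.

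**Figure D1:**
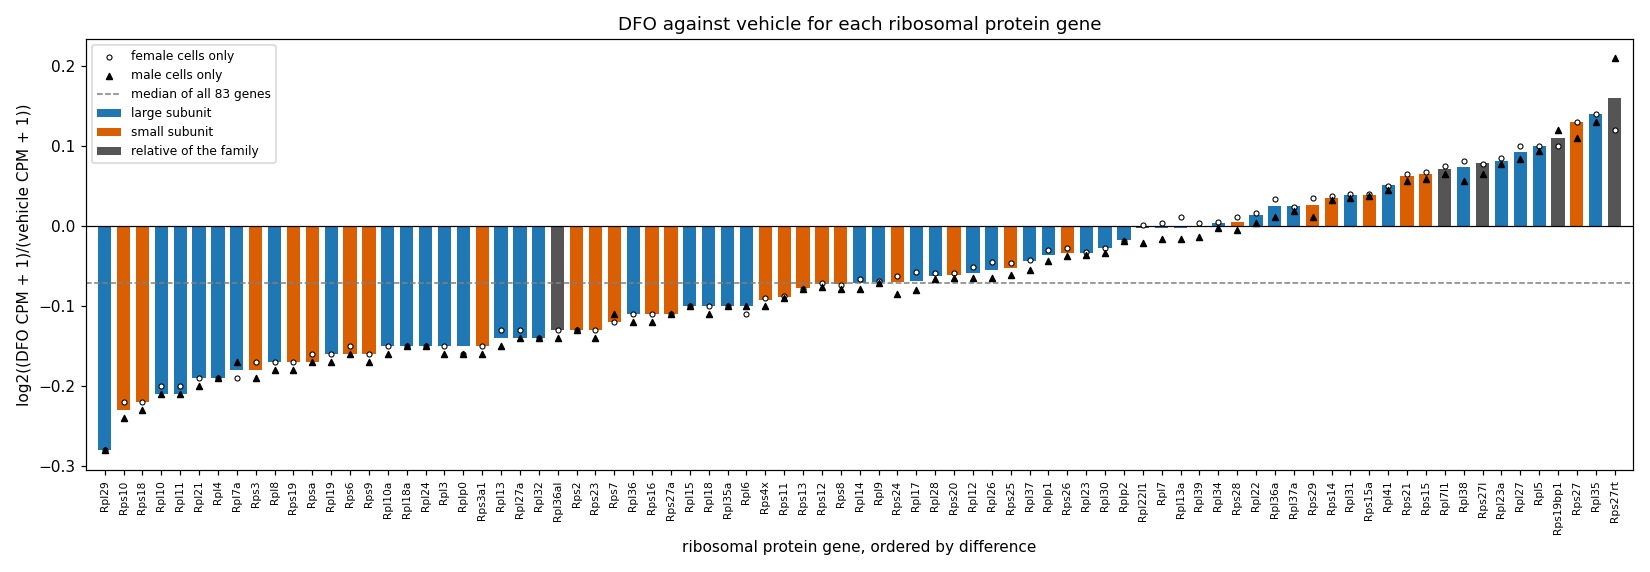
Log2 difference between DFO and vehicle (y axis) for 81 of the 83 ribosomal protein genes at 5 CPM or more, ordered by difference. Bars are all cells, coloured by subunit, circles are female cells and triangles male cells; 59 bars lie below 0, from Rpl29 at -0.28, and the markers stay close to their bars except at Rps27rt.

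No single gene stood apart from the family between the libraries. A member was to be called departing if it lay more than 3 scaled median absolute deviations from the members' median, a distance of 0.35 on the log2 scale, and none did, in this or any alternative setting tried. The members formed a continuous order, in which core proteins of both subunits were found at both ends.

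At the low end, Rpl29 (chr9:106429454-106431568, GRCm38), a large subunit protein that binds heparin, had 1767 CPM in vehicle (1762 to 1772) and 1458 CPM in DFO (1454 to 1463), a difference of -0.28. It was lower in all 8 cell clusters. Rps10, a small subunit protein near the entry of the message, went from 3634 to 3096 CPM (-0.23). Rps18, in the head of the small subunit, went from 4411 to 3782 CPM (-0.22). Each of these was lower in both female and male cells, Rps10 by -0.22 and -0.24 and Rps18 by -0.22 and -0.23. Rpl10, an X-linked protein that joins the large subunit late in its maturation, had 1475 and 1276 CPM (-0.21). Rpl11 had 3759 and 3256 CPM (-0.21).

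At the high end, Rps27rt, the retrogene copy of Rps27, had 19.3 CPM in vehicle (18.77 to 19.84) and 21.61 CPM in DFO (21.07 to 22.16), a difference of 0.16 that rests on 5035 and 6144 molecules. Female cells gave 0.12 and male cells 0.21, the widest such gap among the 83. Rpl35, at the exit of the peptide tunnel, had 1188 and 1306 CPM (0.14), and Rps27, a zinc-finger protein of the small subunit, 958.0 and 1045 CPM (0.13). Rps19bp1, a nucleolar protein that binds Rps19, had 63.7 and 69.02 CPM (0.11). Rpl5 had 1657 CPM (1652 to 1662) and 1770 CPM (1765 to 1775), a difference of 0.10 that fell just short of the count at 0.1 or higher. Rpl41, Rps21, Rpl7l1, Rpl38, Rpl5, Rps19bp1, Rps27 and Rpl35 were the 8 members above 0 in each of the 8 clusters (9.64%), against 16.9% of all genes.

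Rpl5 and Rpl11 lay at opposite ends, although their proteins enter the large subunit together with 5S RNA and together bind Mdm2, the ubiquitin ligase of p53. Rpl5 was higher in DFO in 8 of 8 clusters and Rpl11 lower in 8 of 8. Female and male cells gave 0.10 and 0.094 for Rpl5 and -0.20 and -0.21 for Rpl11. No gene with a similar 3′ end was found for either.

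The stalk proteins also differed in size of change. Rplp0, the base of the stalk that recruits elongation factors, had 6016 CPM in vehicle and 5404 CPM in DFO (-0.15). Its partners Rplp1 (4955 and 4832 CPM, -0.036) and Rplp2 (1693 and 1673 CPM, -0.017) were closer to 0.

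Small subunit proteins known for roles beyond structure lay on both sides of 0, with Rps27 (0.13) and Rps15 (0.066) above it, and the following are described one by one and not as a group. Rpsa, known also as the laminin receptor, went from 5879 to 5242 CPM (-0.17). Rps19, the gene most often mutated in Diamond-Blackfan anemia, went from 4330 to 3850 CPM (-0.17), and Rps6, which S6 kinases phosphorylate, from 2543 to 2281 CPM (-0.16). The X-linked Rps4x had 5060 and 4749 CPM (-0.092), and Rps27a, made as a fusion with ubiquitin, 5254 and 4868 CPM (-0.11). The most abundant member, Rps2, had 8566 and 7845 CPM (-0.13), and 24 genes, the most of any member, resembled its 3′ end. In the large subunit, Rpl3, which lies at the catalytic centre, had 4347 and 3911 CPM (-0.15).

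Of the shortest proteins, Rpl41 had 5868 and 6082 CPM (0.052), and Rpl38, known for its part in the translation of Hox messages, 1192 and 1255 CPM (0.074). Rpl39, in the wall of the peptide tunnel, had 2533 and 2532 CPM (-0.00077), with overlapping intervals.

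Paralogue pairs did not share one pattern. Rps27 and its p53-inducible paralogue Rps27l were both higher in DFO, by 0.13 and 0.079, and Rps27l had 1009 and 1066 CPM. Rpl22, whose protein restrains its paralogue's message, had 1799 and 1816 CPM (0.014), and Rpl22l1 882.5 and 881.3 CPM (-0.0021). Rescaling the DFO library to the median ratio of all genes lowers every member alike, from a median of -0.071 to -0.091, and put Rpl22 at -0.0062. Rpl36a had 1521 and 1547 CPM (0.025, but -0.0045 when member genes were left out of the total), and Rpl36al, its copy on another chromosome, 237.5 and 217.3 CPM (-0.13). Among the 6 relatives at 5 CPM or more the median was 0.076, with 2 of 6 below 0, and among the 77 core genes -0.072, with 58 below 0. Rpl7l1, a paralogue of Rpl7, had 146.7 and 154.3 CPM (0.072), beside 3299 and 3294 CPM for Rpl7.

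The remaining pair of relatives was nearly silent. Rpl39l, known from testis, gave 462 molecules in 76 vehicle cells and 395 in 81 DFO cells. Up to 31 of them sat in a single vehicle cell and 18 in a single DFO cell, and the 10 highest cells held 39.6% and 32.4% of the molecules. Rpl3l, known from striated muscle, gave 18 and 15 molecules, never more than 1 in a cell.

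The members' differences were ordered by coding length and by level. Across the 83 genes the difference between libraries and the coding length (GENCODE M21) had a Spearman rho of -0.58, against -0.42 for the level and -0.13 for GC content. Pearson's r was -0.48 for coding length, -0.50 for the level on the log2 scale and -0.15 for GC content. Over the 83, which of the first pair ranks higher thus depends on the measure. Over the 77 core genes coding length ranked higher on both, with a rho of -0.60 against -0.35 and an r of -0.49 against -0.42. The rho for coding length was -0.63 over the 73 members at 1000 CPM or more. These are descriptions across genes of the same 2 libraries, and genes are not independent replicates. Within the subunits the rho was -0.55 over 46 large and -0.70 over 31 small subunit genes, and it was -0.55 over the 35 members without a similar gene. It lay between -0.60 and -0.53 within each of the 8 cell clusters.

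The 43 members with coding sequences of up to 453 bases, the median, had a median difference of -0.0021, with 23 below 0. The 40 longer ones had a median of -0.15, with 37 below 0, and the exceptions were Rpl5, Rpl7l1 and Rpl23a. Among other genes no such order was seen: rho was -0.00069 over 1481 genes at 100 CPM or more, 0.14 over 76 genes at 1000 CPM or more, and 0.16 over 77 mitochondrial ribosomal protein genes. The length split was chosen after the values had been seen. The part of library preparation in it cannot be told apart from that of treatment.

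**Figure D2:**
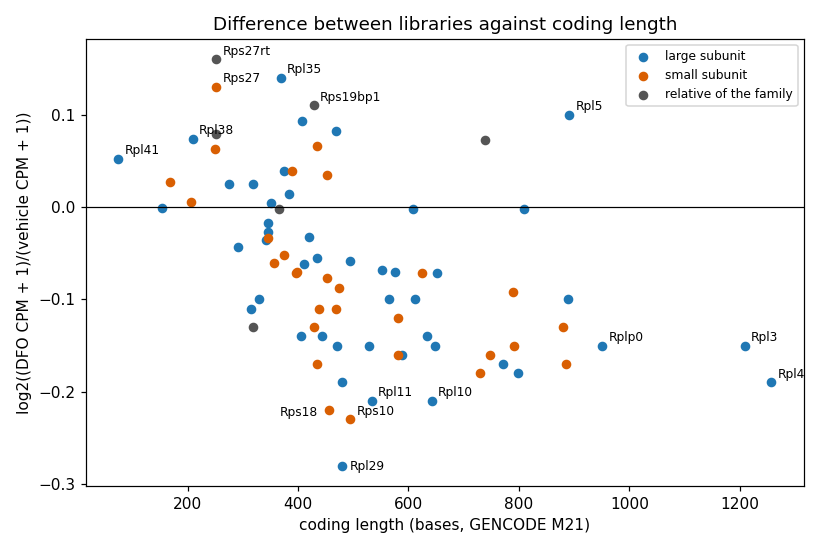
Log2 difference between DFO and vehicle (y axis) against coding length in bases (x axis) for the same 81 genes, coloured by subunit. Genes of up to 453 bases lie on both sides of 0, with Rpl41 and Rps27 above it and Rpl36 and Rpl35a below, and most genes over 453 bases lie below it, with Rpl5 above.

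Members that share sequence with a near-identical copy are uncertain, since reads may be split between the copies. For 48 of the 83 members the last 300 bases of the transcript matched another gene over at least 91 bases at 98% identity or more. The median difference was -0.075 for these and -0.062 for the 35 members without a match. Rpl13a, which had no match by this rule, had 281.2 and 280.8 CPM (-0.0017), with counting intervals of 279.1 to 283.2 and 278.9 to 282.8 that overlapped. Its pseudogene symbol Rpl13a-ps1 held 388 molecules in vehicle and 396 in DFO, so the lack of a match does not mean that no copy exists.

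Female and male cells served as 2 subsets of each library that hold different cells, though they share culture and preparation. Over 4751 vehicle and 5251 DFO female cells the median difference was -0.069, with 56 of 83 members below 0. Over 2767 and 3266 male cells it was -0.078, with 62 below 0. Both were below 0 for 56 members (67.5%), against 34.4% of all genes. For 77 members (92.8%) the sign was the same in female and male cells, against 83.1% of all genes, and the median gap between the 2 values was 0.0095. Most members have a high level, where counting noise is small, and these shares of all genes were not matched for level.

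Cells were clustered without ribosomal protein genes, and 8 clusters were found. Cluster 5 was megakaryocyte-like, with Serpinb2, Timp3, Clec1b, Cavin2, Pf4, Ppbp and Mrvi1 among its 10 leading genes. The others carry no name: cluster 0 was led by Sult1a1, Wfdc2, Procr and Ly6a, cluster 1 by Lpl and Csrp3 with Gata1 and Klf1, cluster 2 by the mitotic genes Fam83d and Nusap1, cluster 3 by Shisa8 with histone genes, cluster 4 by Trp53inp1 and Aldoc, and cluster 6 by Gna14 with Gzmb. Cluster 7, led by Rpgrip1 and Slc39a1, held shallow cells, with a median of 7250 molecules in vehicle and 6655 in DFO.

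The family's share differed between clusters in the same order in both libraries at the extremes. It was highest in shallow cluster 7 (28.5% in vehicle, 26.2% in DFO) and then in cluster 4 (27.1 and 25.4%). It was lowest in megakaryocyte-like cluster 5 (24.1 and 22.5%), and between 25.4 and 26.1% in vehicle and 23.9 and 24.6% in DFO in the remaining 5. In every cluster the share was lower in DFO. The median member difference within clusters ran from -0.12 in cluster 7 to -0.062 in cluster 2. In all 8, 56 members (67.5%) were below 0, against 8.65% of all genes. Counting noise in such signs falls with the level, and 73 of the members were at 1000 CPM or more. No share of all genes at a matched level was taken.

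Depth moved with these shares. Across cells, the family's share and the number of molecules had a rho of -0.51 in vehicle and -0.41 in DFO. In the fifth of cells with the fewest molecules the share was 28.1% in vehicle and 25.9% in DFO, and in the fifth with the most 24.7 and 23.4%. Cluster 5 was the deepest, with medians of 41605.5 and 38899.0 molecules per cell. In cells of 20000 to 30000 molecules alone, cluster 5 had 25.4% (110 cells) in vehicle and 22.7% (72 cells) in DFO. Cluster 1 had 25.7 and 23.9%, cluster 0 25.9 and 24.2%, and cluster 3 26.3 and 24.6%. Cluster 4 had 26.8 and 24.9%, cluster 2 had 26.9 and 25.2%, and cluster 6 had 27.1 and 25.1%. Cluster 7 had 26.4% (23 cells) and 24.9% (13 cells). Cluster 5 was still lowest, close to clusters 1 and 0 in vehicle, and the highest was cluster 6 in vehicle and cluster 2 in DFO. The part of depth in the differences between clusters was not tested further.

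**Figure D3:**
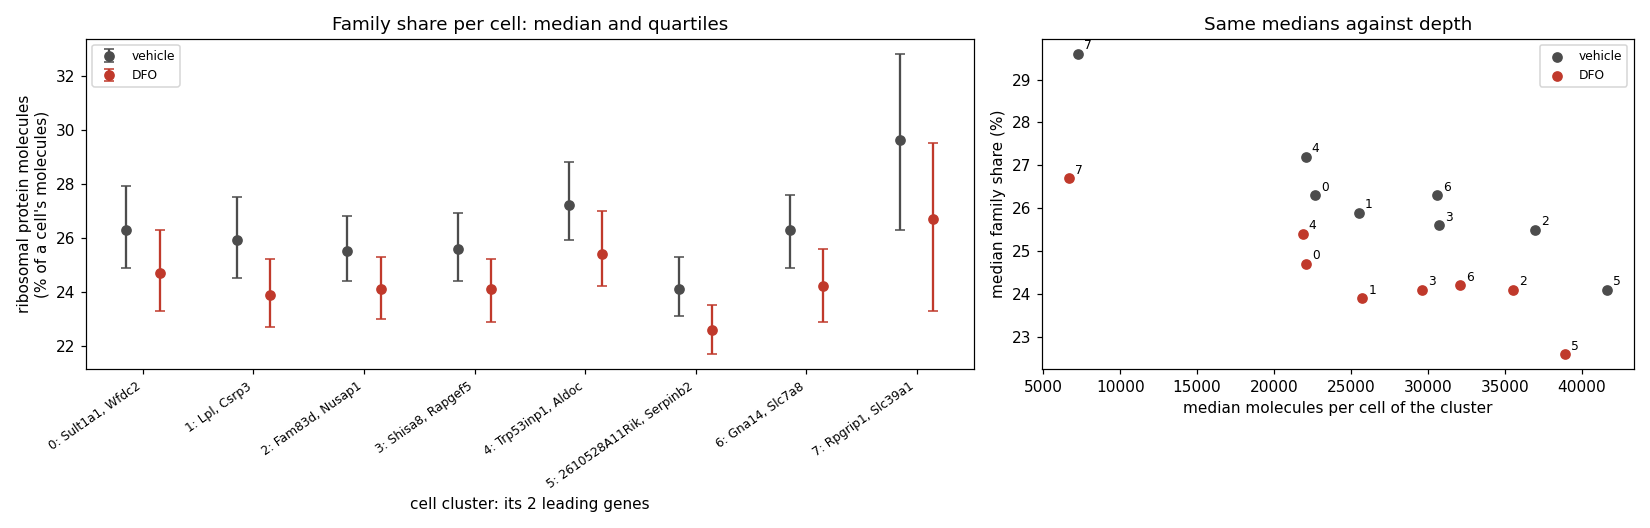
Left, share of a cell's molecules that came from ribosomal protein genes (%) in each cell cluster, as median and quartiles over cells, vehicle in grey and DFO in red. Right, the same medians against the cluster's median molecules per cell: DFO lies below vehicle in each cluster, shallow cluster 7 is highest and deep cluster 5 lowest.

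Cells scored to G1 showed the highest family share, 28.2% in 554 vehicle cells and 26.4% in 364 DFO cells. It was 25.8 and 24.2% in S, and 25.2 and 23.8% in G2/M. The G1 cells were shallow, with medians of 15659.0 and 14561.0 molecules. At 20000 to 30000 molecules the values were 26.9, 26.1 and 26.5% in vehicle and 24.8, 24.4 and 24.8% in DFO for G1, S and G2/M, with only 88 and 34 G1 cells left.

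Relative to the family, 6 members departed in at least 1 cluster. The rule asked for a distance of over 3 scaled deviations and at least 0.25 from the members' median, in both libraries and in 1 direction. These were 7.23% of the 83, and 76.5% of all genes met the same criterion around the same median.

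In megakaryocyte-like cluster 5 the departing members were all above the family. Rps15, a core protein of the small subunit's head, had 1415 CPM there and 1198 CPM in all other vehicle cells, and 1455 and 1275 CPM in DFO. That put it 0.35 and 0.29 above the family, whose own median was lower in the cluster. Rps27l had 1170 against 978.2 CPM in vehicle and 1268 against 1047 CPM in DFO, 0.37 and 0.38 above the family. Rps19bp1 lay 0.39 and 0.37 above, Rpl7l1 0.33 and 0.35, and Rpl36al 0.25 and 0.26. So 4 of the 5 were relatives rather than core proteins. In cluster 4 Rps19bp1 stood at -0.36 and -0.33 from the family, at 53.05 against 64.55 CPM in vehicle.

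Rps12 gave the largest departure in a core protein. In shallow cluster 7 it had 6703 CPM (6623 to 6783) against 3803 CPM (3796 to 3811) in the other vehicle cells, and 6265 CPM (6190 to 6340) against 3620 CPM (3613 to 3627) in DFO. It lay 0.68 above the family in both libraries. In the other 7 clusters its level ran from 3492 to 4141 CPM in vehicle and from 3244 to 3928 CPM in DFO, so cluster 7 overlapped with none of them. Sequence similar to the 3′ end of Rps12 was found in 14 other genes. Rpl7l1 stood at -0.82 and -0.69 from the family in cluster 7, from 369 and 445 molecules. The median mitochondrially encoded share of cluster 7's cells was 6.2% in vehicle and 7.51% in DFO, and their part in these departures was not tested.

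**Figure D4:**
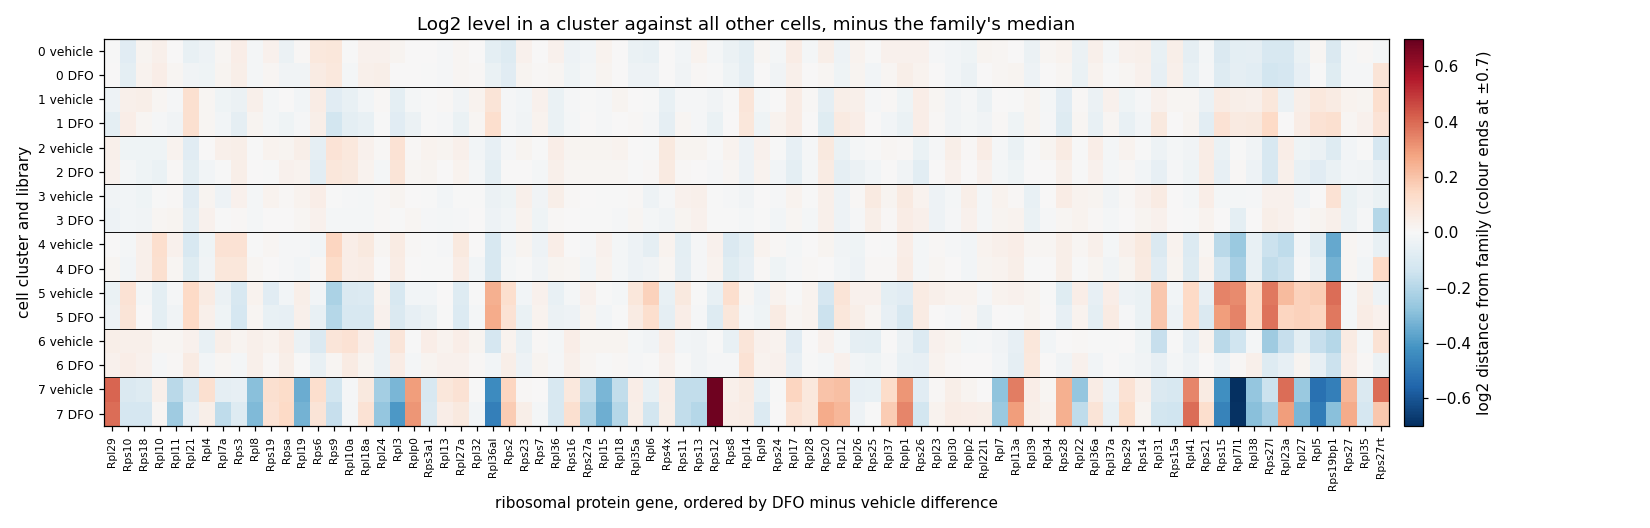
Colour gives each gene's log2 level in a cluster against all other cells of the same library, minus the family's median, for 81 genes (columns, ordered by the DFO difference) and 8 clusters in 2 libraries (rows). Clusters 5 and 7 hold most of the colour, with Rps12 at 0.68 in cluster 7 and Rps15 and Rps27l above the family in cluster 5.

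A similar set separated from the family between single cells. With cells thinned to 10000 molecules each, most members varied together with the sum of the others, with a median Pearson correlation of 0.36 in vehicle and 0.34 in DFO. The correlation was 0.59 and 0.54 for Rpl13. It was below 0 in both libraries for Rps15, Rps27l, Rpl7l1, Rpl23a, Rps19bp1, Rpl5, Rpl31 and Rpl36al, and lowest for Rps15 at -0.21 and -0.18. Thinned cells held a mean of 12.0 Rps15 molecules in vehicle, as many as of Rpl35, whose correlation was 0.23 and 0.24. For Rps19bp1, with 0.609 molecules per thinned cell, sparse counts limit what it can show. The correlation was not computed for genes outside the family, so how common values below 0 are among all genes is not known. These are descriptions over cells of 1 library each, in which all genes share a fixed total. All of the genes named with a correlation below 0, except Rpl36al, were higher in DFO. Among all 83 members 60 were lower in DFO, as were 42.1% of all genes. A link between the correlation and the difference between libraries was not tested. Relative to the family, Rps15, Rps19bp1 and Rps27l were lowest in G1 against S cells among the 83, at -0.44 to -0.41 in vehicle and -0.41 to -0.39 in DFO. G1 cells were shallower than S cells, with medians of 15659.0 against 26026.0 molecules in vehicle and 14561.0 against 25299.0 in DFO. This contrast was not taken at equal depth, and it is not independent of the correlations above.

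**Figure D5:**
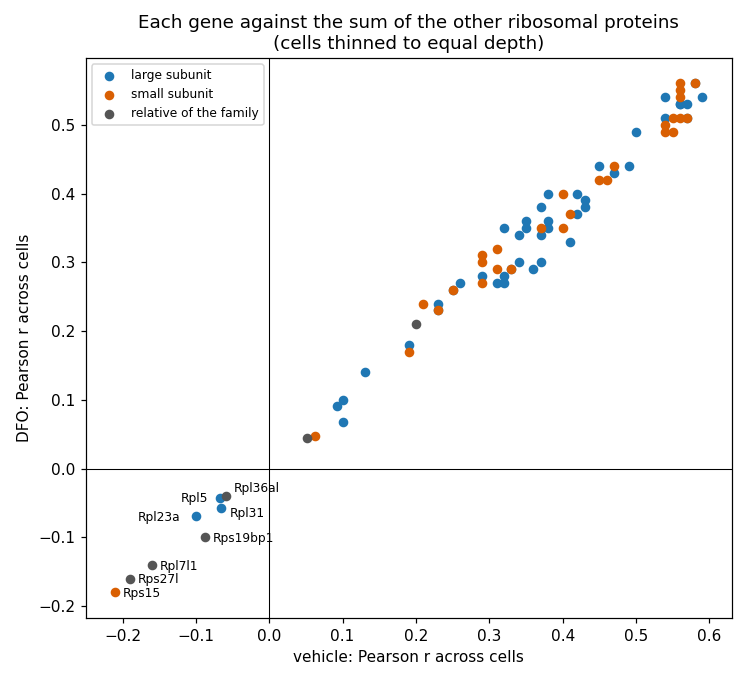
Pearson correlation across cells of each gene with the sum of the other members, vehicle on the x axis and DFO on the y axis, after thinning to equal depth. Most of the 81 genes shown lie between 0.1 and 0.59 in vehicle near the diagonal, and the 8 labelled genes lie below 0 in both libraries.

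Variation between thinned cells was modest. The variance divided by the mean, which is 1 for pure counting noise, had a median over members of 1.36 in vehicle and 1.32 in DFO. It was 2.21 and 2.03 for Rps2, and 2.11 and 1.98 for Rps9. Rps2 was also the most abundant member, with means of 85.7 and 78.3 molecules per thinned cell. The nearly silent Rpl39l had 2.88 and 3.56, at means of 0.0165 and 0.0151. These values were not matched for level.

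The medians of the companion lists of ribosome production and use lay on both sides of 0. Over all 8886 genes at 5 CPM or more the median was 0.019, with 42.1% of genes below 0. The 3 listed proteins of the ribosome that the symbol rule misses had a median of -0.053, with 2 below 0 and 1 above. Those below were Fau, with 3272 and 3010 CPM (-0.12), and Rack1, with 2326 and 2242 CPM (-0.053). Among 36 translation initiation factors the median was 0.05, with 25 above 0 and 11 below. Pabpc4 (0.21) and Eif4a1 (0.16) were highest, and Eif3f (-0.24) and Eif3i (-0.11), both subunits of the factor that binds the small subunit, lowest. Elongation and termination factors had a median of 0.018 (8 of 13 above 0), with Eef1e1 at 0.21 and Abce1 at 0.14, and Eef1b2 at -0.14 and Eef2, the translocase, at -0.13. Other transcripts known to carry a TOP motif had a median of 0.028 (9 of 14 above 0), from Eef1b2 and Eef2 up to Nap1l1 (0.092) and Vim (0.15).

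Factors that assemble and export the subunits lay mostly above 0, with a median of 0.10 and 28 of 31 higher in DFO. Bccip, a chaperone of large subunit assembly, went from 74.9 to 93.44 CPM (0.32), and Pno1, which guides the small subunit's last cleavage, from 82.95 to 99.54 CPM (0.26). Rrn3 (-0.054) and Sbds (-0.046) were lowest. Regulators of ribosomal protein messages had a median of -0.0068 (8 of 15 below 0), with Ddit4 at -0.17, Mtor at -0.10, Mlst8 at 0.13 and Akt1 at 0.19. Larp1 stood at 83.41 and 84.73 CPM (0.022). Mitochondrial ribosomal proteins had a median of 0.036 (55 of 77 above 0), from Mrpl30 (-0.18) and Mrps11 (-0.17) to Mrps17 (0.18) and Mrps10 (0.19). For the proteasome, another large cytosolic complex, it was 0.08 (30 of 39 above 0), from Psmb8 (-0.13) and Psmb5 (-0.092) to Psmc3ip (0.14), which the symbol pattern includes although it is no subunit, and Psmc4 (0.22). The medians of elongation and termination factors, other TOP transcripts and mitochondrial ribosomal proteins lay close to the 0.019 of all genes. All these lists use the same 2 libraries, and the differences between lists were not tested.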

How the data were processed

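Single-cell 3′ RNA libraries of 2 cultures of sorted mouse HSC, 1 per group, were analysed from 2 gene by cell tables. The authors deposited natural log (ln) values. Back-transformed, each value was a whole multiple of its cell's smallest step, which was taken as 1 molecule. This held for all 44114455 and 49560434 nonzero values, within 0.05 of a molecule. The deposited value is thus close to the natural log of 1 + 27408 × molecules / molecules of the cell. It is not exactly that, as back-transformed cell totals ran from 26907.835 to 27408 in vehicle and from 27324.094 to 27408 in DFO. Totals and shares here cover the 14366 deposited genes only. FastQC 0.11.9, Trim Galore 0.6.5, Cell Ranger 3.0.2 and genome build mm10 are named in the submitters' processing notes, without parameters, and the sources used here state neither annotation nor cell filter. How reads that match several near-identical genes were counted is not stated either.

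Recovered molecules were summed per library and scaled to CPM. With 1 library per group no test was run, and intervals are exact 95% Poisson intervals, with Wilson intervals for shares, for counting error only. The family's members and all lists were chosen with earlier results of these data known. The text names members that departed, the 5 highest and 5 lowest, a fixed list of members, and the 2 highest and 2 lowest of each companion list, and other genes it names were chosen after their values were seen. Rps4l and Rpl10l, in that fixed list, were not analysed here. A few items are not reported here, in the text or the figures, although counts, medians and correlations over the lists include them. Clustering used 2000 variable genes, 30 principal components, 15 neighbours and Leiden resolution 0.5, without integration. Members, mitochondrially encoded genes and the 20 S phase and 18 G2/M markers used to score phase were kept out of the variable genes. Other cell cycle genes, such as histone genes, were not kept out. A cluster's leading genes are its 10 highest folds among genes in 10% or more of its cells. Cells counted as female held at least 5 molecules of Xist and 0 of 4 Y-linked genes, and male ones at most 1 of Xist and at least 2 Y-linked. No doublets were removed. As an alternative, cells with molecules of both sexes and the top 8% of Scrublet scores (820 and 925 cells) were left out. Thinning to 10000 molecules left out 351 and 433 cells. Gene lengths came from GENCODE M21 (GRCm38, the same assembly as mm10), which matched 14228 symbols and all 85 members. Similar 3′ ends were searched with BLAST 2.17.0, and start windows matched 65 members in the RefSeq table. Python 3.11.15, scanpy 1.11.5, leidenalg 0.10.2, numpy 2.4.6 and scipy 1.17.1 were used, and the difference was tested on simulated data. Alternatives covered cell weights and filters, scaling, pseudocount, minimum level and clustering.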

Additional observations from a re-analysis of the deposited data

Results flagged for a closer look

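For 6 members the difference between DFO and vehicle had opposite signs in female and male cells, and that contrast between the sexes was not tested. Rpl7 stood at 0.0039 in female and -0.016 in male cells, Rpl39 at 0.0041 and -0.013, Rpl22l1 at 0.0019 and -0.021, Rpl34 at 0.0048 and -0.0022, Rpl13a at 0.012 and -0.016, and Rps28 at 0.012 and -0.0041. All 6 lie within 0.021 of 0. The pseudogene symbol Rpl27-ps3, which the symbol rule leaves out, had 59.47 CPM in vehicle and 63.2 CPM in DFO, with Poisson intervals that do not overlap. It shares its parent's sequence, and Rpl27 itself stood at 605.9 and 646.5 CPM.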

How the results depend on the processing

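No paired analysis was possible because each group has 1 library. The log2 ratio of the family's share, -0.089, was -0.10 with cells weighted equally, -0.095 with thinned cells, -0.094 with equal cluster shares, -0.086 in female and -0.094 in male cells, -0.081 without mitochondrially encoded molecules and -0.088 without cluster 7. The median member difference, -0.071, was -0.079, -0.078, -0.078, -0.069, -0.078, -0.063 and -0.070 under the same settings in that order. It was -0.10 with member genes left out of the total, -0.091 with median-of-ratios scaling, -0.072 at 100 CPM or more, -0.072 over core proteins, -0.062 over members without a similar gene and -0.069 with pseudogene symbols added. The members below 0 numbered 56 to 66 wherever all 83 were used, and 25 of 35 without a similar gene, where fewer were counted. Rpl34, Rps28 and Rpl22 changed from above to below 0 with median-of-ratios scaling, and with member genes left out of the total so did Rpl37a, Rpl36a and Rps29. No member departed between libraries under any of these settings.

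The log2 range of the share over clusters in vehicle, 0.24, was 0.18 at resolution 0.25, 0.24 at resolution 1, 0.19 with thinned cells, 0.23 with 15 principal components, 0.17 without cluster 7 and 0.074 in cells of 20000 to 30000 molecules, where clusters 5 and 7 had too few cells. At resolution 0.25, with 4 clusters, 2 members departed (Rps12 and Rpl7l1) in place of 6. Without cluster 7 there were 4 (Rps15, Rps27l, Rps19bp1 and Rpl7l1). Rps12 had departed in cluster 7 only, so its absence in that setting was fixed in advance. At 20000 to 30000 molecules there were 4, with Rpl5 in and Rpl36al, Rpl7l1 and Rps12 out. In that range cluster 7 had 23 and 13 cells, under the minimum of 50, so Rps12 was not assessed in it. With cells thinned to 10000 molecules the same 6 departed, Rps12 among them. The median member difference was below 0 in each cluster under every clustering setting. Settings without cluster 7, by depth, by core or similar genes and with pseudogenes were chosen after seeing the data.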

Other observations

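Few cells lay far from the rest in the family's share. It was under 15% in 12 vehicle and 9 DFO cells, which had median mitochondrially encoded shares of 10.2 and 11.5%, and over 35% in 47 vehicle and 9 DFO cells, of which 45 and 8 belonged to shallow cluster 7.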
